A study of Homo sapiens with 13 samples.

Results

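NEAT1 and MALAT1 are neighbouring genes of nuclear long non-coding RNAs (lncRNAs) on chromosome 11, and they were taken by name from GENCODE release 44 on GRCh37, the assembly also called hg19. They are 2 of 64449 annotated genes, 18702 of which are lncRNA genes. NEAT1 (ENSG00000245532.11) lies at chr11:65190245-65213011 on the + strand and is 22.8 kb long. MALAT1 (ENSG00000251562.11) lies at chr11:65265111-65275544 on the same strand and is 10.4 kb long. The 2 genes are 52.1 kb apart, and all peaks were read over both genes and 100 kb on either side (chr11:65090245-65375544, 285 kb).

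The cells were MDA-MB-231, an established triple-negative breast cancer line of the basal b type, grown under standard conditions with no treatment, and the line was the only one used. Chromatin was immunoprecipitated and sequenced with antibodies to H3K4me1 (Ab8895), H3K27ac (Ab4729), H3K4me3 (Ab8580), RNA polymerase II (Pol II, sc-55492) and CTCF (C15410210), with 2 libraries per antibody, and to p300/CBP (Ab14984), with 1 library made from pooled immunoprecipitations. The 2 Input libraries were not analysed here. For each antibody there is 1 list of peak positions, called after the replicates had been merged and holding no height or count. Sequencing depth and the error between replicates are therefore unknown, no test between conditions can be made, and each value below is a position, a width or a share of bases with no replicate behind it. In the checked marker genes, all 6 mesenchymal genes of this cell type (VIM, CD44, FOSL1, ZEB1, AXL and CAV1) had H3K27ac and Pol II in their promoter windows, against 1 of 6 luminal or epithelial genes (FOXA1, and not ESR1, PGR, GATA3, CDH1 or EPCAM). Of all protein-coding genes, 61.5% had H3K27ac and 58.4% had Pol II in this window.

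NEAT1 RNA is the scaffold of paraspeckles, nuclear bodies that hold RNA-binding proteins such as SFPQ and NONO. The gene makes a short polyadenylated transcript and a long one from the same start, and the long transcript is the one that builds the body. MALAT1 RNA accumulates in nuclear speckles, where splicing factors are stored, and is among the most abundant non-coding RNAs of many cancer cells. MALAT1 and the long form of NEAT1 have no ordinary poly(A) tail: their 3′ ends are cut by RNase P in front of a tRNA-like structure and are held in a triple helix of genome-encoded A-rich and U-rich tracts. H3K4me3 is known as a mark of promoters, H3K4me1 of enhancers and their flanks, H3K27ac of activity at both, p300/CBP as the acetyltransferase pair that writes H3K27ac, and CTCF as the factor that anchors chromatin loops and boundaries.

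The sequences at the starts are shown because wide H3K27ac and H3K4me3 regions and Pol II peaks lie over them. Each runs from 250 bases before to 50 bases after an annotated start, is the + strand of GRCh37 written 5′ to 3′, and has matches to TATAAA, the TATA box, in capitals. The NEAT1 start is that of its canonical GENCODE transcript (chr11:65190019-65190318). For MALAT1 the canonical start (chr11:65264861-65265160) is given beside a second start 1405 bases downstream (chr11:65266266-65266565), which is listed by RefSeq on GRCh38, was placed on GRCh37 by an exact match of its promoter, and is the commonest start of the GENCODE transcripts (19 of 66).
NEAT1: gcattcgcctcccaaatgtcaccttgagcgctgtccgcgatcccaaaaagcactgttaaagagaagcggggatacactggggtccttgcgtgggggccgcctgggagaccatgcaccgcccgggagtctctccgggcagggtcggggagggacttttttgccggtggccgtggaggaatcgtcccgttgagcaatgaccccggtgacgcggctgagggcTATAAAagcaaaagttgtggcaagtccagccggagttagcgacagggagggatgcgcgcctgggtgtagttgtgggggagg
MALAT1 canonical start: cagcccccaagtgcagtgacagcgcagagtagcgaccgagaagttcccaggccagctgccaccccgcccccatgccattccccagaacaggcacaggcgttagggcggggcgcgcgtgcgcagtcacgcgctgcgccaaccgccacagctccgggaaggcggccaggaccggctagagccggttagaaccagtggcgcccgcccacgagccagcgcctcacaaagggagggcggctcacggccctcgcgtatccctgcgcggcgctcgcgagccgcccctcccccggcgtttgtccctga
MALAT1 second start: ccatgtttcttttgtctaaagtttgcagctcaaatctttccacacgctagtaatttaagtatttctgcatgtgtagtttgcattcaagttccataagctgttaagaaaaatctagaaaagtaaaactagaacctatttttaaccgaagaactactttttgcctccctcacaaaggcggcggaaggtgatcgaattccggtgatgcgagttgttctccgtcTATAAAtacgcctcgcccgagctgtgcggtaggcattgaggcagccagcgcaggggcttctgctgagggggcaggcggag

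A TATA box began 31 bases before the NEAT1 start and 30 bases before the second MALAT1 start. TATAAA on the coding strand at 24 to 36 bases before the canonical start was found at 183 of 18702 lncRNA genes (0.979%) and 761 of 19881 protein-coding genes (3.83%). No TATAAA lay in the window of the canonical MALAT1 start. That window was 71.7% G and C, against 62.0% at NEAT1 and 46.0% at the second MALAT1 start, where the median was 49% for lncRNA promoters and 63.7% for protein-coding ones. None of the 3 windows held TGANTCA, the site of AP-1, or the 13-base core of the CTCF site (CCA, AG and GGCA, each separated by 2 free bases), on either strand. TGANTCA was present in 9.98% of lncRNA promoters of this length and 5.40% of protein-coding ones.

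Pol II covered both genes from end to end, each within a single peak. The NEAT1 peak, chr11:65185401-65214701, was 29.3 kb wide, and it began 4.87 kb before the canonical start and ended 1.69 kb past the end of the gene. The MALAT1 peak, chr11:65264201-65276201, was 12 kb wide, from 0.91 kb before the start to 0.656 kb past the end. Each peak thus ran past both ends of its gene, and the stretch between the genes was not covered as a whole. Only 37 of 26065 Pol II peaks (0.142%) were as wide as that of NEAT1, and 349 (1.34%) as wide as that of MALAT1, where the median peak was 850 bp. In the Pol II list, bins above threshold no more than 800 bp apart were merged, so a fully covered gene may hold short stretches below the threshold.

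Such coverage was uncommon in this list. Of all 64449 genes, 1996 had at least 90% of their bases in Pol II peaks (3.10%), and the share was 4.13% among lncRNA genes and 3.10% among protein-coding genes. Full coverage was found for 2.85% of all genes, 3.76% of lncRNA genes and 2.73% of protein-coding genes. The share was higher among short genes. Among lncRNA genes, 12.1% of those under 2 kb were covered to this extent, and 0.384% of those of 10 to 20 kb and 0.195% of those of 20 to 50 kb. Genes of like length were those with 80% to 125% of the length of a member. Among those of like length to NEAT1, 18 of 3893 were covered by at least 90% (0.462%) and 6 were covered completely (0.154%), NEAT1 included. For the length of MALAT1 the numbers were 85 of 3737 (2.27%) and 63 (1.69%). Of the 4904 lncRNA genes at least as long as NEAT1, 3 were fully covered: NEAT1, MIR222HG, the host of a pair of cancer-associated microRNAs, and BCL2L1-AS1, which overlaps the protein-coding gene BCL2L1. Immunoprecipitated DNA carries no strand, so the antisense genes TALAM1 and ENSG00000270117, both inside MALAT1, cannot be told apart from it, and the covered length cannot be assigned to 1 transcript.

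**Figure D1:**
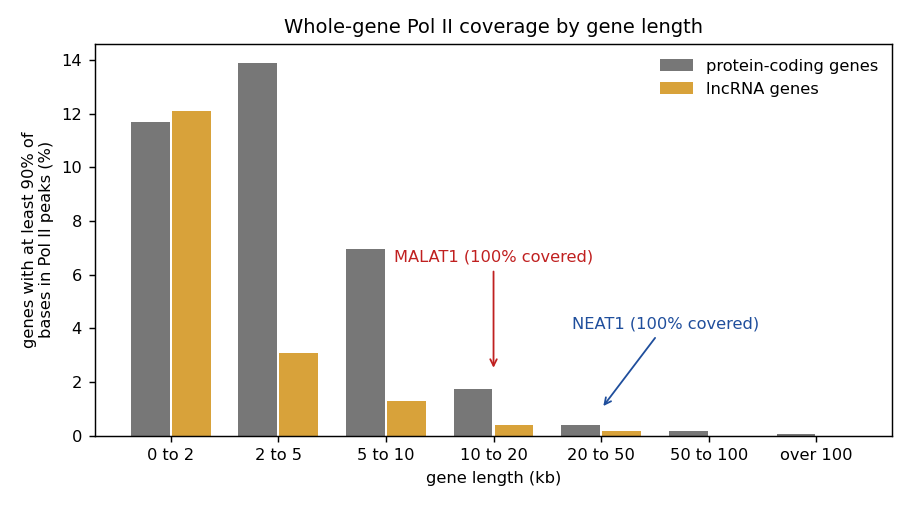
Percent of genes with at least 90% of their bases in Pol II peaks (y axis) by gene length in kb (x axis), for protein-coding (grey) and lncRNA (yellow) genes. Arrows mark the length classes of the 2 fully covered genes. The share for lncRNA genes was 0.384% in the class of MALAT1 and 0.195% in that of NEAT1.

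The 2 genes differed in the share of their length that H3K4me3 and H3K27ac covered. At NEAT1, H3K4me3 and H3K27ac stayed at the 5′ end. A 9.80 kb H3K4me3 region (chr11:65185951-65195751) spanned the start and ended 5.48 kb downstream of it, and an 11.9 kb H3K27ac region (chr11:65183551-65195451) ended 5.18 kb downstream. Together with 1 smaller region of each mark, they covered 25.1% and 29.2% of the gene. In the 3 kb promoter window, H3K27ac, H3K4me3 and Pol II covered all of the bases of NEAT1, and 100%, 90.3% and 80.3% of those of MALAT1. At MALAT1 the same 2 marks ran through most of the gene: H3K4me3 covered 88.5% of it and H3K27ac 87.6%. These shares also depend on gene length, 22.8 kb for NEAT1 and 10.4 kb for MALAT1. The main H3K4me3 regions were alike in width (9.80 and 9.95 kb) and reached 5.48 and 8.74 kb past the canonical starts.

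The MALAT1 H3K4me3 region (chr11:65263901-65273851, 9.95 kb) began 1.21 kb before the canonical start and ended 90 bp short of the commonest transcript end (chr11:65273940, 11 of 66 transcripts). It therefore lay over 99% of the stretch from the canonical start to that end, a stretch set by annotation and not by measured RNA. The H3K27ac region there (chr11:65254151-65273351) was 19.2 kb wide and reached 10.96 kb upstream of the start. Its upstream arm covered 100% of the lncRNA genes LINC02736, ENSG00000286756 and ENSG00000290061, which a separate Pol II peak (chr11:65254851-65262201) also overlapped. The width of the region is therefore not that of MALAT1 alone. The H3K4me3 and H3K27ac regions were among the widest of their lists. The H3K4me3 regions of MALAT1 and NEAT1 had 48 and 51 of 24693 regions at least as wide (0.194% and 0.207%), and the H3K27ac regions 18 and 123 of 41034 (0.0439% and 0.300%), themselves included. Of the 3737 genes of like length to MALAT1, 4 had as much of their length in H3K4me3 and 11 as much in H3K27ac, MALAT1 included. H3K4me3 over at least 50% of the gene was found in 0.990% of them, and in 0.0514% of the genes of like length to NEAT1.

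**Figure D2:**
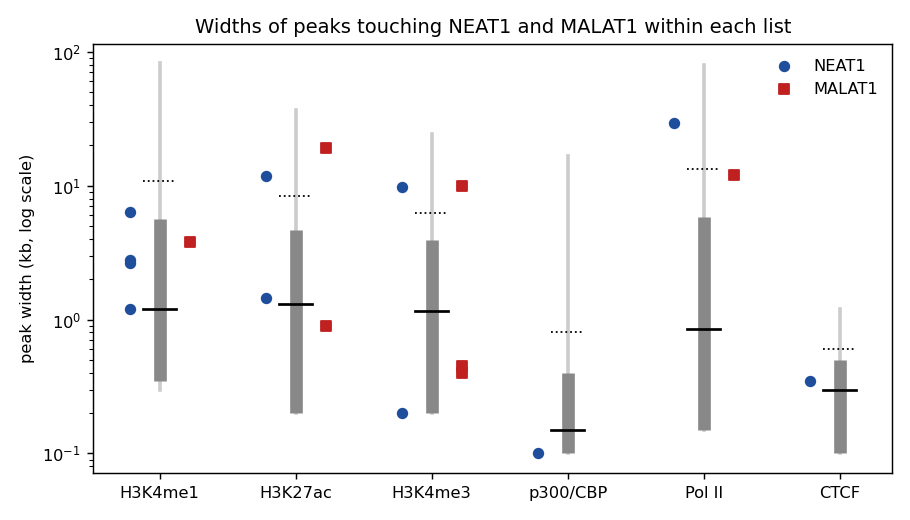
Width in kb on a log axis (y axis) of each peak touching NEAT1 (blue circles) and MALAT1 (red squares), beside all peaks of the 6 lists (x axis): light line, narrowest to widest; dark bar, 5th to 95th percentile; solid line, median; dotted line, 99th percentile. The main H3K27ac and H3K4me3 regions of both genes and the Pol II peak of NEAT1 lay above the 99th percentile, and the 12 kb Pol II peak of MALAT1 below it.

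At the starts, H3K4me1 was arranged the other way round. Both starts fell in gaps of this mark: NEAT1 in a gap of 5550 bp (chr11:65188451-65194001) and MALAT1 in one of 6750 bp (chr11:65264451-65271201). At each start the gap was filled by H3K4me3, H3K27ac and Pol II. A start inside those 3 lists and outside H3K4me1 was found for 40.5% of protein-coding genes and 12.2% of lncRNA genes, so many other promoters share this arrangement. H3K4me1 returned further into each gene, where 4 regions covered 57.1% of NEAT1 and 1 region covered 36.4% of MALAT1.

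NEAT1 could be divided at the last end of its short transcripts (chr11:65193984, 3740 bp from the first annotated base), shared by 2 of its 9 annotated transcripts. Over the short transcripts H3K4me3, H3K27ac and Pol II covered 100% of bases and H3K4me1 none. Over the remaining 19 kb, used only by the annotated long transcript, Pol II again covered 100%, whereas H3K4me1 covered 68.3%, H3K27ac 15.3% and H3K4me3 10.3%. The H3K4me1 gap ended 3.73 kb after the canonical start, at the end of the short transcripts. This H3K4me1 boundary and the short transcript end thus lay within 1 bin of 50 bp of each other, and the lists cannot place them more finely. The H3K27ac and H3K4me3 regions ended 1.47 and 1.77 kb past the short transcript end.

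**Figure D3:**
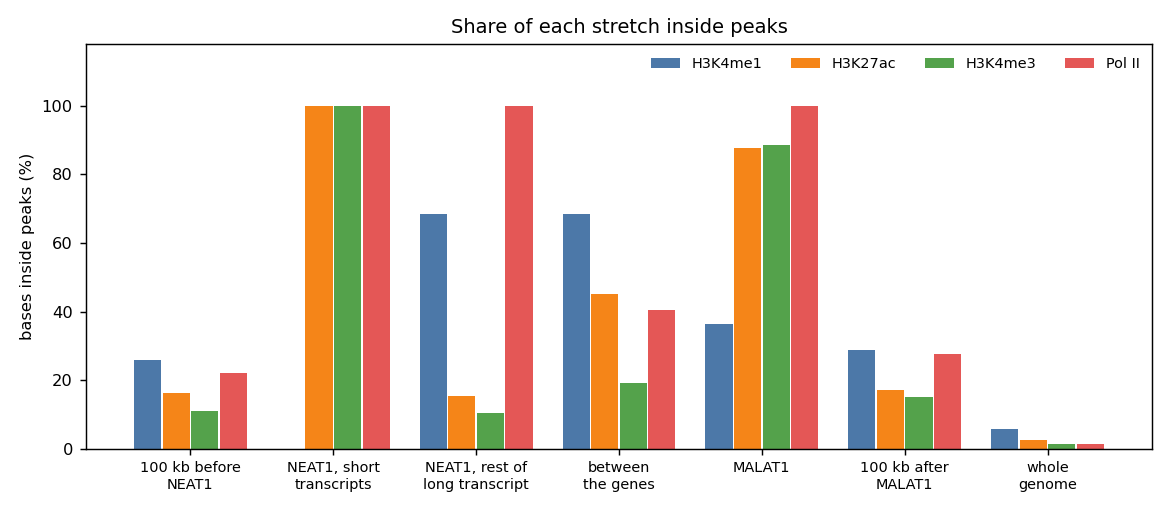
Percent of bases inside peaks (y axis) of H3K4me1, H3K27ac, H3K4me3 and Pol II for 6 stretches of the locus and for the whole genome (x axis). Pol II stood at 100% in both parts of NEAT1 and in MALAT1, while H3K4me3 covered 100% of the short-transcript part of NEAT1, 10.3% of the rest and 88.5% of MALAT1.

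The A-rich tract near the 3′ end of MALAT1 is shown since the H3K4me3 region and the Pol II peak both pass over it. It is the longest run of A in the gene (13 bases, chr11:65273569-65273581). The run ends 8.47 kb after the canonical start and 359 bases before the commonest annotated transcript end. That end is set by annotation and need not be the processed 3′ end of the RNA. The 163 bases around the run of A (chr11:65273449-65273611, + strand of GRCh37) are printed with runs of 5 or more A or T in capitals.
MALAT1 3′ tract: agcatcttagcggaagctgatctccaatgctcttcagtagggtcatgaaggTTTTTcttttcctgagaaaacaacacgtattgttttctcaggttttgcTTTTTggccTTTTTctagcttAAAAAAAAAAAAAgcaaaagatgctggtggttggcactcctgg

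There were 3 runs of T before the run of A, the order in which the U-rich and A-rich parts of the triple helix are known to lie. H3K4me3 continued 269 bases past the tract, and Pol II 2.26 kb past the commonest end. At NEAT1, where the end of the long transcript is formed in the same way, Pol II ended 1.69 kb past the gene and H3K4me3 far inside it.

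p300/CBP had 1 peak inside NEAT1 and 0 inside MALAT1, and 6 of the 13984 peaks of its list lay in the window. A p300/CBP peak touched 5.34% of the genes of like length to NEAT1 and 2.65% of those of like length to MALAT1. The peak covered 0.439% of NEAT1, against 0.0964% of the genome. The 2 peaks nearest upstream of NEAT1 lay at chr11:65186151-65186551 (-4.12 to -3.72 kb from the start, 400 bp wide) and chr11:65188751-65188951 (-1.52 to -1.32 kb, 200 bp). The second reached into the 3 kb promoter window of NEAT1, where few genes had one: a p300/CBP peak was found in 1.83% of lncRNA promoter windows and 0.704% of protein-coding ones. This second peak also overlapped the lncRNA gene ENSG00000290057 (chr11:65188919-65189335), where it covered 6.67% of the promoter window, so it cannot be assigned to NEAT1 alone. That small gene lay wholly inside the H3K27ac, H3K4me3 and Pol II peaks that span the NEAT1 start. The peak inside NEAT1 (chr11:65203701-65203801, 100 bp) lay 13.43 kb into the gene, in the part used only by the long transcript. The peak nearest to MALAT1 (chr11:65256851-65257001) lay 8.11 kb before it, and downstream there was none for 395 kb. The remaining peaks were at chr11:65138701-65138901, upstream of NEAT1, and chr11:65239651-65239901, between the genes.

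The peaks nearest to the 2 genes and the one between them are printed whole (+ strand of GRCh37), with capitals at TGANTCA, the site of AP-1, the factor family that the study was about. The last position of each range is the listed end, the first base after the peak, and is not printed.
p300/CBP before NEAT1, chr11:65188751-65188951: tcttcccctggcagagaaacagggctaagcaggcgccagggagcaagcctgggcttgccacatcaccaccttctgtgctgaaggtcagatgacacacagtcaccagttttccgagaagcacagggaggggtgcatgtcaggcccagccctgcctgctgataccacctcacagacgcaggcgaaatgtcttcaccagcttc
p300/CBP inside NEAT1, chr11:65203701-65203801: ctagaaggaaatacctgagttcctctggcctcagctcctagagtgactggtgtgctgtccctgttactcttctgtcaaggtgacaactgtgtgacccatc
p300/CBP between the genes, chr11:65239651-65239901: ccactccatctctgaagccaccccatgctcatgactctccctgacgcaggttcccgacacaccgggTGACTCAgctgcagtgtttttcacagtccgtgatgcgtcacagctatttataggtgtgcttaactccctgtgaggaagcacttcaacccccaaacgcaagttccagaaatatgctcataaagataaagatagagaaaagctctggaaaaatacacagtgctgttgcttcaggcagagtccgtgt
p300/CBP before MALAT1, chr11:65256851-65257001: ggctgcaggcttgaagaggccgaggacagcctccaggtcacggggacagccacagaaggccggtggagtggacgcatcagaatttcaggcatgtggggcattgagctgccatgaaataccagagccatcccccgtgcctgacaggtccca

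TGANTCA, which reads the same on both strands, occurred in 1 of the 6 whole peaks, that between the genes, 49.45 kb from the NEAT1 start. Of 13983 p300/CBP peaks on chromosomes 1 to 22, X and Y, 28.1% held it, with 11.3% of those of 100 bp, 24.9% of those of 150 bp, 37.9% of those of 200 bp, 50.8% of those of 250 bp and 57.1% of those of 400 bp, the widths of the 6 peaks. With 6 peaks, 1 match cannot be told apart from that background. The matched sequence also lay inside an H3K4me1 region, an H3K27ac region and a Pol II peak.

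CTCF had 22 peaks in the window. NEAT1 held 1 of them, chr11:65200401-65200751, 10.13 kb after the start, and MALAT1 held none. A CTCF peak touched 39.1% of the genes of like length to NEAT1 and 26.3% of those of like length to MALAT1. The nearest on the outside of NEAT1 were at chr11:65183801-65184201, 6.04 kb before the gene, and chr11:65222401-65222701, 9.39 kb past it. Around MALAT1 they were at chr11:65247051-65247301, 17.8 kb before, and chr11:65278251-65278551, 2.71 kb past the end, and 4 CTCF peaks lay between the genes. The Pol II peaks of both genes ended before the next CTCF peak downstream of the gene, but that of NEAT1 ran across the CTCF peak inside it. Whether CTCF is related to the ends of Pol II peaks was not tested. The CTCF core was found in 3 of the 22 peaks, against 14.9% of all 39596 CTCF peaks. The match nearest to NEAT1 was in the peak upstream of it, whose central 300 bases (chr11:65183851-65184150) are printed with the core in capitals. The peak inside NEAT1 held no match to these letters.
CTCF before NEAT1: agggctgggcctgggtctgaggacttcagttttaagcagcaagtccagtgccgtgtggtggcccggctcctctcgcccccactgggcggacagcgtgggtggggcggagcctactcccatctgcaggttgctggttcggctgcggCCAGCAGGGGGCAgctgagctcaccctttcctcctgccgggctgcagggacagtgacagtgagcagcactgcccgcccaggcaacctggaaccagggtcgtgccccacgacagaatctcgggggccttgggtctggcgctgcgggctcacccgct

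**Figure D4:**
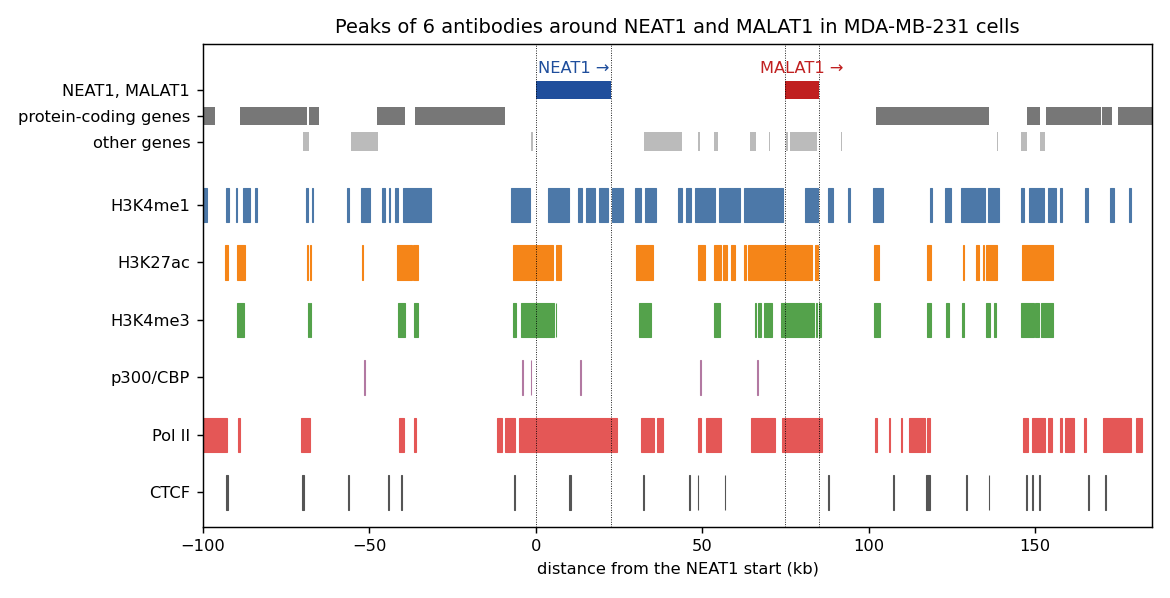
Map of the window, with the distance from the canonical NEAT1 start in kb on the x axis; rows show NEAT1 and MALAT1, protein-coding genes, other genes and the peaks of each antibody, and dotted lines mark the ends of the 2 genes. Pol II filled both genes, the wide H3K27ac and H3K4me3 regions sat at the 5′ part of NEAT1 and over most of MALAT1, and both starts fell in gaps of H3K4me1.

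Peaks of all 6 lists took up more of the window than of the genome. Pol II peaks covered 36.4% of the 285 kb against 1.5% of the genome, H3K27ac 25.5% against 2.48%, H3K4me3 17.8% against 1.33% and H3K4me1 37.5% against 5.87%. For p300/CBP the shares were 0.456% and 0.0964%, and for CTCF 2.51% and 0.421%. The window was chosen for its genes and holds active protein-coding genes too, so these shares do not belong to NEAT1 and MALAT1 alone. In the 52.1 kb between them, where no protein-coding gene is annotated, H3K4me1 covered 68.4%, H3K27ac 45.1%, Pol II 40.3% and H3K4me3 19.1%.

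Candidate active enhancers (cAEs) were H3K4me1 regions that touched H3K27ac, and candidate inactive enhancers (cIEs) those that did not, both away from the 3 kb windows around protein-coding starts. The window held 41 H3K4me1 regions: 12 cAEs, 16 cIEs and 13 that touched a promoter window. Between the genes there were 5 cAEs and 3 cIEs. The widest was the cAE at chr11:65252751-65264451, 11.7 kb wide, which ended 0.66 kb before the MALAT1 start, and 720 of 88319 H3K4me1 regions were as wide (0.815%). It overlapped the upstream arm of the 19.2 kb H3K27ac region, and held 3 H3K4me3 regions, 1 Pol II peak and 1 p300/CBP peak. At its downstream end it also overlapped the H3K4me3 region and the Pol II peak of MALAT1. Before NEAT1, the 5.45 kb cAE at chr11:65183001-65188451 held 1 p300/CBP peak, 1 CTCF peak and 1 H3K4me3 region, and overlapped the 29.3 kb Pol II peak of NEAT1, another Pol II peak and the 9.80 kb H3K4me3 region.

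Most cAEs of the window also carried H3K4me3 and Pol II. H3K4me3 touched 10 of the 12, where it touched 34.2% of the 24323 cAEs of the genome. Pol II touched 11 (21.0% of all cAEs), CTCF 5 (16.4%) and p300/CBP 4 (20.6%). Most cAEs of the window were wider than the median H3K4me1 region of 1200 bp, and a wider region is touched more easily. The shares were not matched for width, so the excess cannot be assigned to the locus. Several of these regions lie inside or beside the lncRNA genes themselves, which the definition does not exclude. When the starts of all basic transcripts were excluded, those of lncRNA genes included, 2 cAEs were left, at chr11:65097151-65098051 and chr11:65137751-65140401, which began -93.12 and -52.52 kb from the NEAT1 start. None of the 10 others met this stricter definition, which also drops regions beside further starts of protein-coding genes. With all basic starts of protein-coding genes alone excluded 10 cAEs were left, and with the canonical starts of protein-coding and lncRNA genes excluded 5 were left, both computed after the count had been seen.

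There were 13 protein-coding genes touching the window, 12 of which are named here, and most carried marks at their starts but were not filled by Pol II. H3K27ac was present in 11 of 13 promoter windows (61.5% of all protein-coding genes), H3K4me3 in 11 (62.7%), Pol II in 12 (58.4%) and H3K4me1 in 12 (59.4%). CTCF was present in 5 (17.6%) and p300/CBP in 0 (0.704%). Over the genes, the Pol II share was 10.9% in DPF2, a subunit of the BAF remodelling complex, 8.0% in TIGD3, 15.3% in SLC25A45, a mitochondrial carrier, and 6.54% in FRMD8, the nearest protein-coding gene upstream. It was 8.94% in LTBP3, which binds latent TGF-beta, 64.1% in ZNRD2, 29.2% in EHBP1L1, 46.1% in MAP3K11, a kinase of the JNK pathway, and 82.8% in KCNK7, a potassium channel gene. AP001362.1 was at 0 and ENSG00000285816 at 42.9%. Only FAM89B, 1.85 kb long, was covered by at least 90%. NEAT1 and MALAT1 were the longest fully covered genes of the window.

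The genes whose products work with the 2 RNAs were read in the same way. All 15 genes of paraspeckle proteins, all 15 of nuclear speckle proteins and all 12 of MALAT1 3′ end processing had H3K27ac, H3K4me3 and Pol II in their promoter windows, above the shares of all protein-coding genes just given. None of the 42 had p300/CBP there, which cannot be told apart from the 0.704% of all protein-coding genes. At the level of the whole gene, the 42 genes differed widely.

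The median Pol II share was 18.3% for paraspeckle protein genes, 36.3% for nuclear speckle protein genes and 16.7% for the end processing genes, and 0.749% for all protein-coding genes. Among paraspeckle proteins, HNRNPA1, an RNA-binding protein, was fully covered and SFPQ, a core paraspeckle protein, was at 95%, while SMARCA4, the BRG1 ATPase, was at 1.98% and CPSF6, a cleavage factor subunit, at 0.581%. Among nuclear speckle proteins the splicing factors SRSF1, SRSF2 and SRSF3 were fully covered and SRSF11 (2.4%) and RBM25 (0.782%) were lowest. Of the end processing genes, POP5, an RNase P subunit gene of 2.64 kb, was the 1 that was fully covered; RPP25 followed at 45.1%, and RPP30 (0.798%) and POP1 (0.541%) were lowest. The covered members were mostly short genes: SFPQ, at 17.1 kb, was the longest of the 7 covered by at least 90%, and NEAT1 was longer than each of them.

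The list of 15 other named lncRNAs held 14 annotated as lncRNA genes and TUG1, which is annotated as protein-coding here. Of the 14, 11 had H3K27ac, 11 H3K4me3 and 11 Pol II in their promoter windows (27%, 24.4% and 24.4% of all lncRNA genes), 9 had H3K4me1 (33.6%) and 1 CTCF (11.5%). SNHG1 and MIR22HG, host genes of small RNAs, were fully covered by Pol II and GAS5 was at 92.7%. MEG3, H19 and HOTAIR had no Pol II over the gene. CYTOR was the only gene of this list with p300/CBP in its promoter window, where 1.83% of all lncRNA genes had it. With so few genes, this cannot be told apart from that share. The median Pol II share was 14.2% for the 14 genes and 18.0% with TUG1, which was at 40.1%, against 0 for all lncRNA genes.

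**Figure D5:**
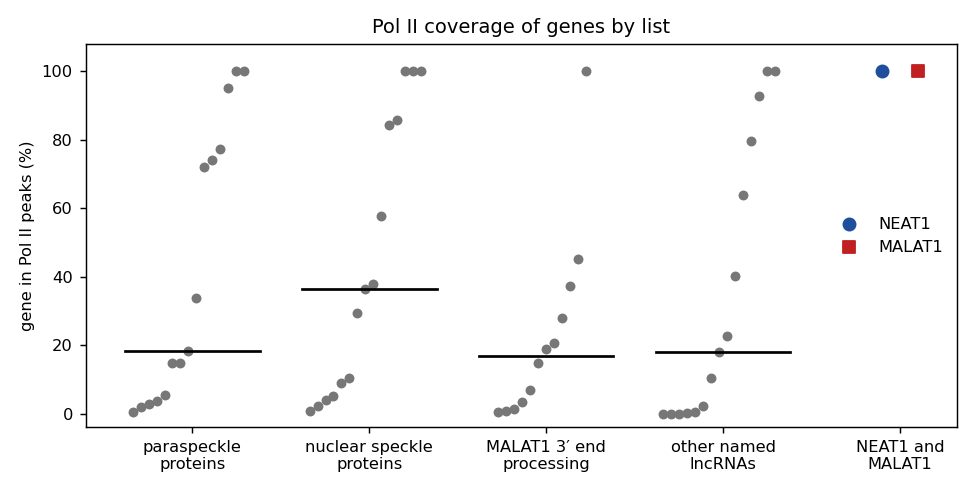
Percent of each gene inside Pol II peaks (y axis) for 4 lists of genes and for NEAT1 and MALAT1 (x axis); points are genes and lines medians. Points ran from near 0 to 100% in each list, with medians of 18.3%, 36.3%, 16.7% and 18.0% (TUG1 included), and NEAT1 and MALAT1 were both at 100%.

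Finally, the genes most like each member were found by the distance over 12 values, the percent of the gene and of its 3 kb promoter window in each of the 6 lists, among 32434 genes of at least 3 kb. The smaller the distance, in percentage points, the more alike the 2 genes. Nearest to NEAT1 was PKM, the pyruvate kinase of glycolysis (distance 9.65), which was also fully covered by Pol II with 28.5% of the gene in H3K27ac, 18.6% in H3K4me3 and 54.6% in H3K4me1. It was followed by DDX39B (15.5), COX20 (16.2), ENSG00000266086 (22.4) and ERF (22.9), and among lncRNA genes by HIF1A-AS3 (26.8), RUSC1-AS1 (34.1) and SNHG7 (36). ENSG00000266086 overlaps SRSF1, so its values cannot be told apart from those of SRSF1. Overlap of the others with further genes was not examined. Nearest to MALAT1 was IER5 (20.8), an immediate early gene, followed by the ribosomal protein genes RPL3 (23.6) and RPL12 (24.1), FOSL1 (28), which encodes the AP-1 protein Fra-1, and PAGR1 (29.1). The nearest lncRNA genes were MIR22HG (32.6), ENSG00000260267 (35.0) and SNHG1 (38.5).

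The 2 neighbours were not among each other's nearest genes. Their distance was 95.7, and MALAT1 came at rank 1211 from NEAT1 and NEAT1 at rank 527 from MALAT1. The widest differences were those of the histone marks over the gene, with H3K4me3 at 88.5% of MALAT1 against 25.1% of NEAT1 and H3K27ac at 87.6% against 29.2%, while Pol II was at 100% in both. Such shares also depend on gene length, which was 22.8 kb for NEAT1. The 5 genes nearest to MALAT1 were 3.73 to 8.53 kb long, all shorter than MALAT1 at 10.4 kb.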

How the data were processed

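Chromatin of MDA-MB-231 cells was immunoprecipitated and sequenced as described above. The authors aligned reads to hg19 (BWA-backtrack per the study's methods, Bowtie2 per the submitters' processing notes), used PASHA to turn reads that mapped once into a 50-bp binned signal, merged replicates, and took bins over a threshold as peaks (Integrated Genome Browser). The deposited lists hold peak positions only, with no score, signal or count. Thresholds were 30 for H3K4me1 and H3K4me3, 60 for p300/CBP and 50 for H3K27ac, Pol II and CTCF. Per the list names, the p300/CBP and histone signals had been scaled with background subtracted, the Pol II signal had been scaled, and the CTCF signal neither. Gaps were joined up to 1000 bp for H3K4me1, 800 bp for Pol II, 500 bp for H3K27ac and H3K4me3 and 50 bp for p300/CBP and CTCF. Depth is unknown.

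A listed end was taken as the first base after the peak, since starts and ends are both 1 past a multiple of 50. Coordinates were used on GRCh37, with 0 peaks past a chromosome end, and 0 columns were left unmapped. Promoter windows were 3 kb about the canonical start, which 19881 of 20163 protein-coding genes had. Overlap was 1 bp or more. Genes named were the 2 members, the protein-coding genes touching the window, the members of the gene lists by counts with the highest and lowest 2 by Pol II coverage, and the 5 genes and 3 lncRNA genes most like each member. TUG1, SFPQ, SRSF1, SRSF2, SRSF3, RPP25, GAS5, CYTOR, MIR222HG and BCL2L1-AS1 were also named, after their values were seen, where a tie or a small count needed it. So were lncRNA genes and a pseudogene of the window, where a peak or stretch described lay over them. The members, gene lists and motifs were chosen with earlier results of these data known. Python 3.11.15, NumPy 2.4.6, SciPy 1.17.1 and matplotlib 3.10.9 were used, and in tests on simulated intervals 0 of 4040 comparisons came out wrong. Promoter sequences came from GRCh37, with the second MALAT1 start from RefSeq (GRCh38), whose promoter table matched 1 of the 2 members. Values of some genes that this rule names are not reported here.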

Additional observations from a re-analysis of the deposited data

How the results depend on the processing

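Of 45 alternative values, 13 equalled the reported value and 29, those 13 included, counted as close to it: counts within 1.5 times, coverages equal as printed, and shares inside the interval of the reported share. Pol II coverage was 100% for both genes on the canonical transcript and with only peaks of their list's median width or more, and for NEAT1 with 1 kb added at each end. It was 96.5% for MALAT1 with 1 kb added. The canonical transcript and width settings could not have lowered it, so their equal values are no check. Each gene lies inside 1 peak far wider than the median of 850 bp, and its canonical transcript lies within the gene. H3K27ac coverage of MALAT1 was 79.0% with the wider peaks, as its 900 bp region was left out. The share of all genes covered by at least 90%, 3.10% (95% Wilson interval 2.97% to 3.23%, counting error only), was 3.27% on canonical transcripts, 2.85% for full coverage and 1.86% for genes of at least 2 kb. This interval takes genes as independent, although overlapping genes can share a peak, and serves only as a measure of closeness. Counts in the window depended on its size. Within 50 kb there were 25 H3K4me1, 16 Pol II and 13 CTCF peaks, and within 200 kb 63 H3K4me1, 39 H3K27ac and 46 Pol II peaks. The wider peaks alone left 26 H3K4me1, 13 H3K27ac and 14 H3K4me3 peaks. The 12 cAEs became 2 once the starts of all basic transcripts were excluded, 5 with canonical protein-coding and lncRNA starts excluded and 10 with all basic protein-coding starts excluded (both added after seeing the data). Keeping wide peaks was used in place of a stricter threshold, which positions without values do not allow. It cannot show whether a wide merged peak would break up at a higher threshold. No paired analysis was possible because peaks were called on merged replicates, so leave-one-out values were not run either. Depth is unknown and p300/CBP rests on 1 library.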
